A study of Mus musculus with 6 samples.

Results

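The genes described here are Gzma, Gzmb, Gzmk, Prf1 and Nkg7, which encode granzymes A, B and K, perforin 1 and natural killer cell granule protein 7. They were chosen by name, with earlier results of these data known. All 5 were found among the 14597 genes of a single-cell RNA-sequencing table of T cells from subcutaneous B16-F10 tumors, sorted as TCRβ+. The tumors grew from B16-F10, an established melanoma line of mouse origin, in Foxp3-EGFP-DTR mice, in which the Foxp3 locus itself drives EGFP together with a receptor for diphtheria toxin (DTx), which makes Treg cells sensitive to the toxin. The labels list 3 samples from mice given PBS and 3 from mice given DTx, all of this genotype and all tumor T cells, and give no age. The table pools 12818 cells of 6 numbered libraries, and no label ties a library number to a sample, so PBS was not compared with DTx, libraries were not treated as replicates of a group, and no p-value was computed.

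Cytotoxic T cells kill by releasing granules toward a target cell. Perforin opens pores in the target membrane, and granzymes, a family of serine proteases, enter through them and cleave proteins that start cell death. Granzyme B cuts after aspartate and can activate caspases, whereas granzymes A and K cut after basic residues. Nkg7 is a membrane protein of the granules with a role in their release. In mice Gzma and Gzmk lie side by side, and Gzmb opens a separate cluster of granzyme genes.

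Counts of unique molecular identifiers (UMIs), each standing for 1 captured transcript, were given per 10,000 UMIs of the same cells, and a share is the percentage of cells with at least 1 UMI. Total depth was 21816565 UMIs, with a median per cell from 610 in library 3 to 2500 in library 4. Library 2 was highest in genes of naive T cells, with Ccr7 at 10.2 UMIs per 10,000, Lef1 at 5.68 and Tcf7 at 3.76. Libraries 1 and 3 came next, with Ccr7 at 2.47 and 2.34, Lef1 at 2.79 and 2.91 and Tcf7 at 2.67 and 2.52. Libraries 4, 5 and 6 were lower, with Ccr7 at 0.234 to 0.475, Lef1 at 0.918 to 1.01 and Tcf7 at 0.367 to 0.65. CD8+ T cells (4497 cells in which Cd8a or Cd8b1 was counted and neither Cd4 nor Foxp3), CD4+ Tconv cells (1205 cells in which Cd4 was counted without Cd8a, Cd8b1 and Foxp3) and Foxp3+ cells (97 cells in which Foxp3 was counted without Cd8a and Cd8b1) were read from the counts, and the T cell genes Cd3e, Cd3d, Cd3g, Trac or Trbc2 were counted in 97.98%, 96.7% and 97.9% of them. The libraries shared 76 cell barcodes. All intervals below are 95% intervals for counting error only; UMIs of 1 cell are not independent of each other, so the spread between cells and between animals is not covered.

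All 5 genes are protein coding. On GRCm38, the mouse assembly also called mm10, Gzma lies on the minus strand of chromosome 13 at chr13:113093825-113100981 and Gzmk on the same strand at chr13:113171608-113225908, with 70626 bases between them. Gzmb lies on the minus strand at chr14:56258838-56262260, 24181 bases from Gzmc, the nearest other granzyme gene. Prf1 is at chr10:61297833-61304680 and Nkg7 at chr7:43437073-43438249, both on the plus strand. The stretches upstream of Gzma, Gzmb and Prf1 are shown as examples, from 2 granzymes of separate clusters and the pore-forming protein. They are RefSeq sequences of GRCm38.p6, 240 bases each, written 5′ to 3′ on the strand of the gene and stopping 10 bases short of the RefSeq transcript start. Capitals mark matches on either strand to the core letters of a Runx motif (ACCACA), AP-1 (TGANTCA) and a CRE (TGACGT). A T-box motif (TCACAC) was searched as well, and its letters were not in these 3 windows.
Gzma, chr13:113100992-113101231, minus strand: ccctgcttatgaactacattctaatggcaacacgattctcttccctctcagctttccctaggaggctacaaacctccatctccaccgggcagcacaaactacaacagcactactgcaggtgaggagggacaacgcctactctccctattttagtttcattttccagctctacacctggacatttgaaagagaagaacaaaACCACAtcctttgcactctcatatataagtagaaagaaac
Gzmb, chr14:56262345-56262584, minus strand: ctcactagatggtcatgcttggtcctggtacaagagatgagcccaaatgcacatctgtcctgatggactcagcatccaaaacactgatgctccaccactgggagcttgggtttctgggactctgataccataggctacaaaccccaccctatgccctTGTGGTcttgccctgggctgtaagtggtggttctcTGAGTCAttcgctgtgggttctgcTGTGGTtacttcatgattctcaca
Prf1, chr10:61297586-61297825, plus strand: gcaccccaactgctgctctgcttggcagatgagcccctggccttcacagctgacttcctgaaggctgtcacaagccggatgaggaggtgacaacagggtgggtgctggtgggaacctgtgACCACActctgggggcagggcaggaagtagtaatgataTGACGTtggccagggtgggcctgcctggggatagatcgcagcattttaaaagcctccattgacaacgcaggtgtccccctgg
The stretch of Gzma held 1 Runx match, that of Gzmb 2 Runx matches and 1 AP-1 match, and that of Prf1 1 Runx and 1 CRE match, with no overlap between them. The windows of Gzmk and Nkg7 are not shown. Over 32851 promoter windows of the same length, 13.6% held the Runx letters, 11.9% the T-box letters, 6.58% the AP-1 letters and 6.09% the CRE letters. A match describes letters and is not evidence of a bound factor.

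Gzma, which encodes a trypsin-like granzyme, differed widely between libraries. In CD8+ T cells it stood at 1.01, 0.0992, 1.80, 32.3, 30.1 and 20.7 UMIs per 10,000 in libraries 1 to 6. The highest library was 326 times the lowest and, without library 2 with its 13 Gzma UMIs, 32.0 times. No neighbours in the order of the 6 libraries had overlapping intervals. The share of CD8+ T cells with a Gzma UMI ran from 0.790% (0.318 to 1.62) in library 2 to 69.9% (66.6 to 73.0) in library 4. The number of UMIs per positive cell moved as well, with a median of 2 UMIs in each of libraries 1, 2 and 3, 8 in libraries 4 and 5, and 5 in library 6. These medians were not matched for depth. The median depth of CD8+ T cells was 1386, 1289, 884.5, 2774, 2390 and 1552 UMIs in libraries 1 to 6, and its part in the move was not tested.

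Gzmb, the aspartate-cutting granzyme, was also lowest in library 2. Its level in CD8+ T cells was 2.44, 0.0839, 3.71, 9.75, 16.4 and 11.5 UMIs per 10,000 in libraries 1 to 6. Library 5 was 195 times library 2, which had 11 Gzmb UMIs, and 6.71 times the lowest of the other libraries. Again the intervals of neighbouring libraries did not overlap. The libraries did not come in the same order for the 2 genes, since library 4 was highest for Gzma and library 5 for Gzmb.

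Gzmk, the granzyme next to Gzma on chromosome 13, was at 1.82, 0.175, 1.93, 2.95, 2.58 and 2.64 UMIs per 10,000 in libraries 1 to 6. The highest was 16.8 times the lowest, 1.62 times without library 2, and libraries 1 and 3, 5 and 6, and 6 and 4 were not separated by their intervals. Apart from library 2, the other 5 libraries ran from 1.82 to 2.95 UMIs per 10,000, whereas Gzma in the same 5 libraries ran from 1.01 to 32.3.

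Prf1, the pore-forming protein, was counted far more sparsely. It was at 0.236, 0.191, 0.227, 0.352, 0.382 and 0.341 UMIs per 10,000 in libraries 1 to 6. The highest was 2.004 times the lowest, 1.68 times without library 2, and every pair of neighbours in the order had overlapping intervals. The interval of library 2 (0.123 to 0.282) nevertheless lay below those of library 4 (0.284 to 0.432) and library 5 (0.309 to 0.467). These values rest on 313 UMIs in 283 CD8+ T cells, of which 90.8% had a single UMI. In library 2, which had 13 Gzma, 11 Gzmb and 23 Gzmk UMIs in 886 CD8+ T cells, Prf1 had 25 UMIs.

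Nkg7, the granule membrane protein, was found in most CD8+ T cells. Its level was 14.2, 4.52, 15.5, 21.8, 20.1 and 17.8 UMIs per 10,000 in libraries 1 to 6. The highest was 4.82 times the lowest, 1.53 times without library 2, and libraries 1 and 3 were not separated. The share of CD8+ T cells with an Nkg7 UMI was 40.6% (37.4 to 43.9) in library 2 and 95.9% (94.3 to 97.1) in library 4.

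**Figure D1:**
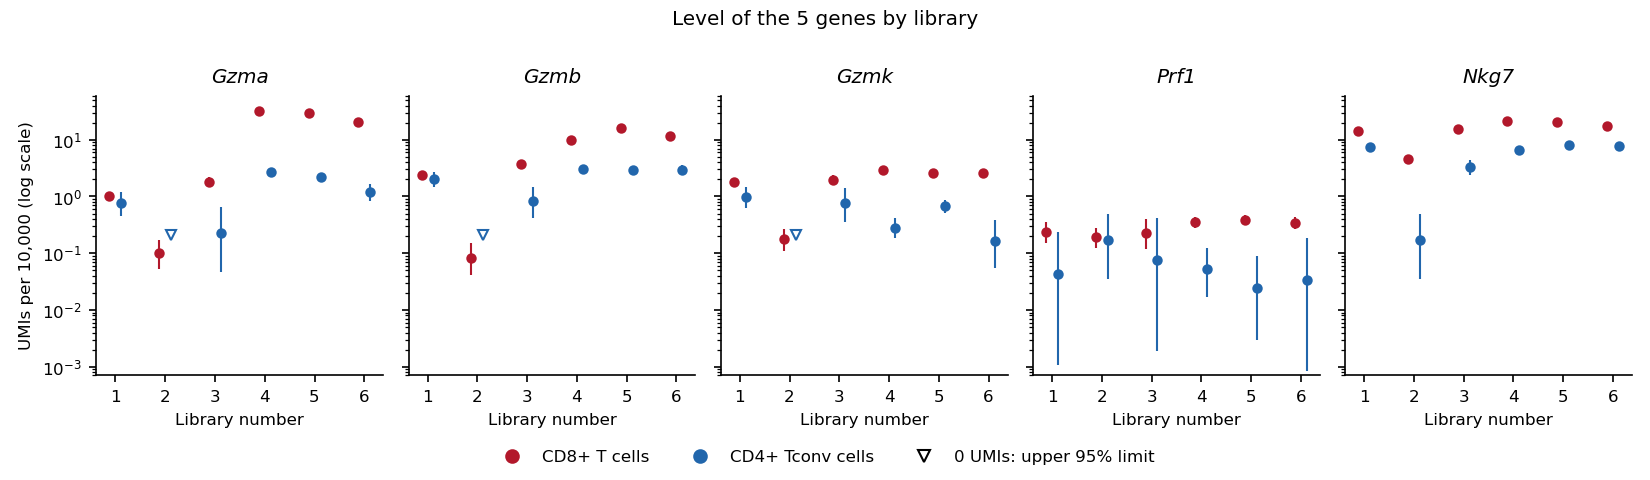
Level of each gene (UMIs per 10,000, log axis) in CD8+ T cells (red) and CD4+ Tconv cells (blue) of libraries 1 to 6, with exact Poisson 95% intervals as bars and open triangles at the upper limit where 0 UMIs were counted. Gzma in CD8+ T cells runs from 0.0992 to 32.3 while Prf1 stays between 0.191 and 0.382, and CD4+ Tconv cells lie below CD8+ T cells of the same library wherever both have a value.

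Since libraries differed in depth, each cell was also thinned to 1500 UMIs, which kept 2626 of the 4497 CD8+ T cells and left out the shallower ones (270, 295, 103, 751, 734 and 473 cells were kept in libraries 1 to 6). At this equal depth the share of CD8+ T cells with a Gzma UMI was 6.67%, 1.69%, 12.6%, 66.2%, 65.9% and 63.8% in libraries 1 to 6. For Gzmb it was 20%, 0.678%, 37.9%, 51.4%, 67.2% and 64.1% in libraries 1 to 6, and for Nkg7 it ran from 48.8% in library 2 to 93.1% in library 4. The share with a Prf1 UMI, 2.71% to 10.0% before thinning, lay between 3.05% in library 2 and 5.07% in library 6 at equal depth, with intervals that overlapped for all libraries. A background for these shares comes from CD4+ Tconv cells of the same library, of which 0% to 12.6% had a Gzma UMI and 0.532% to 1.99% a Prf1 UMI before thinning, at median depths of 695 to 2555 UMIs against 884.5 to 2774 in CD8+ T cells. In library 2 the CD8+ shares of Gzma, Gzmb and Gzmk (0.790%, 0.903% and 1.35%) lay below 1.99%, the share that 0 of its 151 CD4+ Tconv cells allows, and were not separable from those cells. In its 1254 naive-like cells the shares were 0.239%, 0.638% and 0.239%. The intervals overlapped for Gzma and Gzmb. For Gzmk they were narrowly apart (0.702 to 2.35 beside 0.0494 to 0.698). At 1500 UMIs per cell those of Gzmk overlapped (0.210 to 2.94 beside 0.00888 to 1.94). In library 1 the CD8+ share of Gzma was 5.63% (3.95 to 7.74) beside 2.76% (0.757 to 6.91) in CD4+ Tconv cells. That of Gzmb was 15.8% (13.0 to 18.9) beside 14.5% (9.19 to 21.3). The intervals overlapped, so these shares were not separated from CD4+ Tconv cells either. In the 487 naive-like cells of library 1 the shares were 1.23% (0.453 to 2.66) for Gzma and 4.31% (2.69 to 6.52) for Gzmb, below the CD8+ intervals. At 1500 UMIs per cell the intervals of CD8+ T cells and naive-like cells overlapped. Gzma was then at 6.67% (3.999 to 10.3) beside 1.47% (0.179 to 5.21), and Gzmb at 20% (15.4 to 25.3) beside 10.3% (5.74 to 16.7).

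The 3 granzymes did not make up the same mixture in each library. At 1500 UMIs per cell, 96.9% of CD8+ T cells in library 2, 64.4% in library 1 and 48.5% in library 3 had no UMI of Gzma, Gzmb or Gzmk, against 21.7%, 16.3% and 15.01% in libraries 4, 5 and 6. Cells with both Gzma and Gzmb but not Gzmk were 0 of 270 in library 1, which allows up to 1.11%, and 4.85% in library 3. The same cells were 26.8%, 32.8% and 32.8% in libraries 4, 5 and 6. Cells with Gzmk alone of these 3 granzymes were 11.5% in library 1 and 9.71% in library 3, and 2.80%, 2.32% and 4.65% in libraries 4, 5 and 6. All 3 granzymes together were found in 2.59% and 3.88% of cells in libraries 1 and 3 and in 15.3%, 18.9% and 14.8% in libraries 4, 5 and 6. Of the UMIs of these 3 granzymes in CD8+ T cells, counted without other granzymes and without division by transcript length, Gzma made up 19.2%, 27.7%, 24.2%, 71.8%, 61.4% and 59.3% in libraries 1 to 6 and Gzmk 34.6%, 48.9%, 26.0%, 6.57%, 5.26% and 7.57%.

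**Figure D2:**
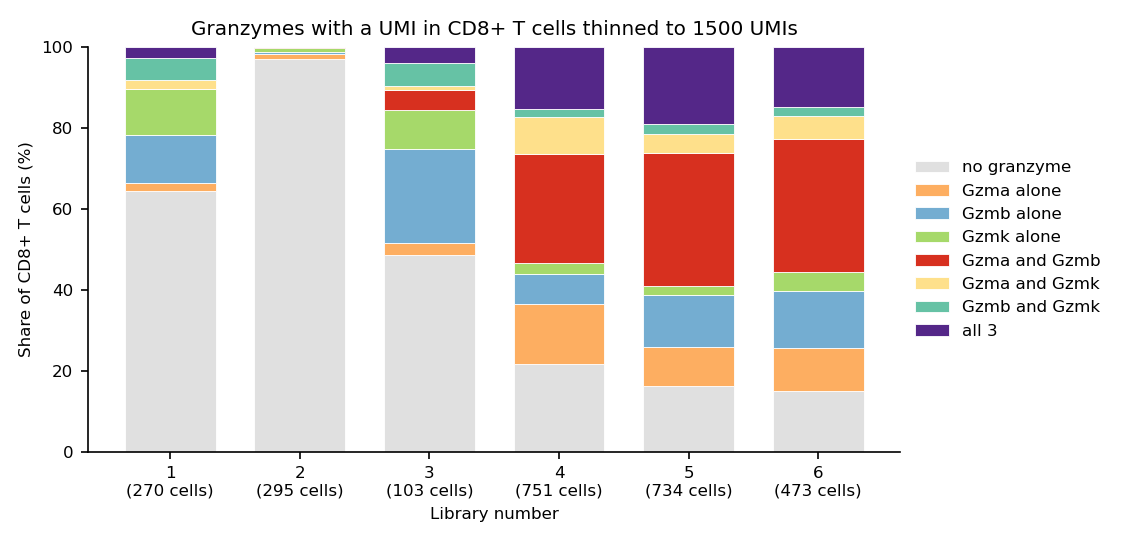
Share of CD8+ T cells (%, stacked bars) with UMIs of no granzyme, 1, 2 or all 3 of Gzma, Gzmb and Gzmk in libraries 1 to 6, after thinning each cell to 1500 UMIs; the number of cells kept stands under each bar. Cells with Gzma and Gzmb together, drawn in red, are 26.8% to 32.8% of libraries 4, 5 and 6 and at most 4.85% of libraries 1, 2 and 3.

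Transcripts of the 5 genes were also spread unevenly over the cells of 1 population. The top 10% of CD8+ T cells by Gzma held 66.5% of its 20023 UMIs, and 1 cell had 161. For Gzmb the top 10% held 63.6% of 9245 UMIs, with up to 90 in a cell. For Nkg7 they held 35.8% of 16977 UMIs. These shares pool libraries whose levels differed. Within a library the top 10% held 45.8%, 46.5% and 49.4% of the Gzma UMIs in libraries 4, 5 and 6, where Gzmb stood at 48.8%, 49.4% and 51.0% and Nkg7 at 26.0%, 26.0% and 31.6%. In libraries 1, 2 and 3 fewer than 10% of CD8+ T cells had a Gzma UMI. In CD4+ Tconv cells the 495 Gzma UMIs came from 89 cells, and 1 cell of library 4 alone held 75.

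All 5 genes were higher in CD8+ T cells than in CD4+ Tconv cells. The comparison was made within library, as the UMIs counted in CD8+ T cells over the number that the CD4+ Tconv cells of the same library would give at equal depth, and a gene was called when the ratio was at least 2-fold and pointed the same way in every library with at least 10 cells of both kinds. Gzma was 12.7 times as abundant (11.6 to 14.0), Gzmb 3.96 times (3.65 to 4.31) and Gzmk 5.37 times (4.44 to 6.56). Prf1 was 5.53 times as abundant (3.04 to 11.2), from 13 UMIs in CD4+ Tconv cells, and Nkg7 2.75 times (2.61 to 2.90). Without library 2 the log2 ratio of Prf1 went from 2.46 to 3.04. Each of the 5 pointed the same way in 6 of 6 libraries and was called, although in library 2 the direction rested on 13, 11 and 23 UMIs of Gzma, Gzmb and Gzmk against 0 and, for Prf1, on a ratio of 1.13 (0.345 to 5.86). These calls stand beside 1.62% of the 10384 genes tested that were called higher and 1.27% called lower. The 5 genes and the pathway lists below were chosen with earlier results known, so their counts of calls are not independent of these data.

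The size of the difference varied between libraries. For Gzma the ratio was 1.33 in library 1 (0.801 to 2.33), an interval that includes 1, and 7.94, 11.9, 13.6 and 17.3 in libraries 3 to 6. For Gzmb it was 1.201 in library 1 (0.879 to 1.67) and between 3.22 and 5.54 in libraries 3 to 6. In library 2 no UMI of Gzma, Gzmb or Gzmk was found in CD4+ Tconv cells, so no fold is given. Nkg7, at 3 UMIs in those cells, had a ratio of 26.8 in library 2 and of 1.92 to 4.78 elsewhere. Markers of NK cells (Ncr1, Klrb1c, Klra8, Tyrobp and Fcer1g; Klra4 was not analysed here), which use the same granule proteins, were present in 126 CD8+ T cells, 2.80% of them, and summed to between 0.0305 and 0.394 UMIs per 10,000 in CD8+ T cells of the 6 libraries and to between 0 and 0.151 in CD4+ Tconv cells. Ncr1, which defines NK cells, was found in 2 CD8+ T cells. Without all cells with such a marker the log2 ratio of Gzma was 3.76 beside 3.67, and for all 5 genes it stayed within the interval of the value with them.

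In the wider granule pathway 4 of 30 genes tested were called higher in CD8+ T cells, beside the 1.62% of all genes. Of the 4 other granzymes in the table (Gzmd, Gzmg and Gzmn were not analysed here), 3 had enough UMIs to be tested and 1 was called, Gzmm, which cuts after methionine and was 5.75 times as abundant in CD8+ T cells (3.47 to 10.3). Gzmc, at 2.08 times (1.59 to 2.76), was higher in 2 libraries and lower in 3 and was not called. Of 9 genes for the granule matrix, granzyme processing and inhibitors, 2 were called higher. These were Ctsw, a cathepsin of cytotoxic lymphocytes, at 2.51 times (2.30 to 2.74), and Cst7, the cystatin F gene whose product inhibits cathepsins, at 2.02 times (1.73 to 2.38). None of the 7 genes of granule release (such as Rab27a and Unc13d) and none of the 4 death ligand and cytokine genes (Fasl, Tnfsf10, Tnf and Ifng) was called. Of 7 transcription factor genes 1 was called, Eomes, a T-box factor, at 4.86 times (2.94 to 8.65). The median log2 ratio was 2.42 over the 5 genes described here, 0.20 over granule matrix and inhibitors, -0.13 over granule release and -0.08 over transcription factors, beside -0.05 over all genes tested. Gzmc and 2 other genes that were not called are named after their values were seen. Ifng, the effector cytokine gene, was at 1.16 times (1.09 to 1.24) and Tbx21, the other T-box factor of the list, at 1.198 times (0.977 to 1.48).

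**Figure D3:**
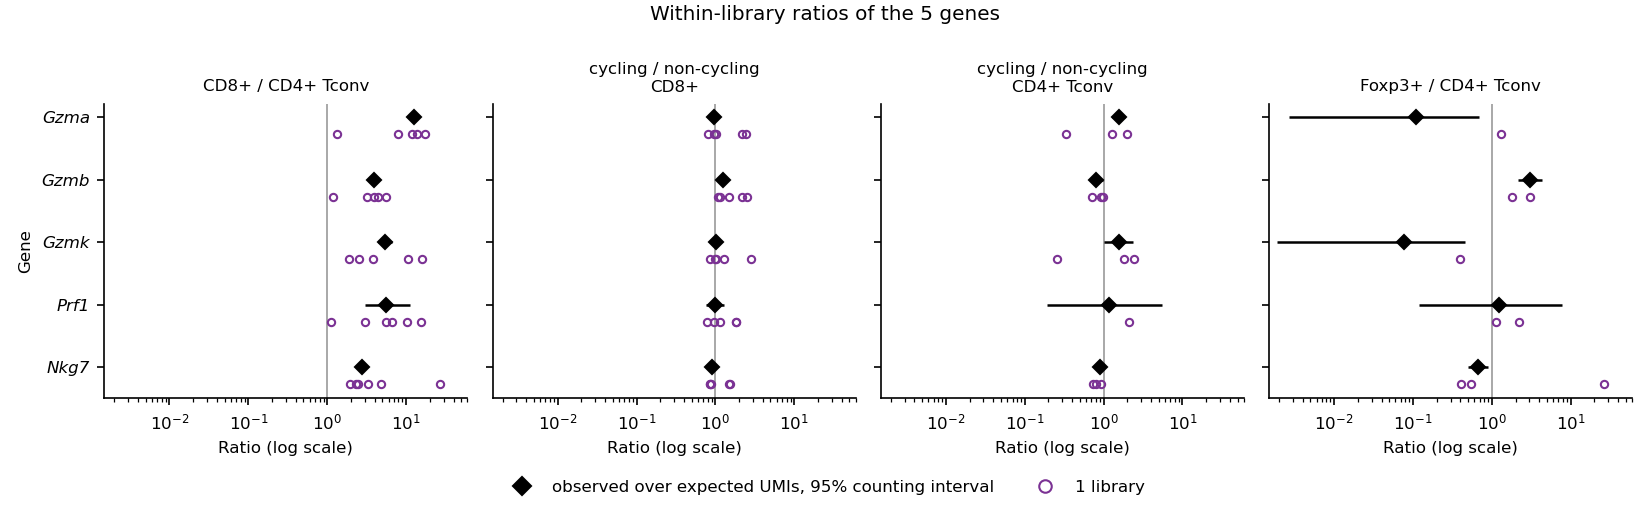
Ratio of each gene (log axis) in 4 within-library comparisons, with black diamonds and bars for the ratio over all libraries and its 95% counting interval, and open circles for single libraries with UMIs on both sides. All 5 genes lie right of 1 for CD8+ against CD4+ Tconv cells, from 2.75 for Nkg7 to 12.7 for Gzma, whereas the ratios between cycling and non-cycling CD8+ T cells lie between 0.906 and 1.23.

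Cycling T cells, taken as those with an Mki67 or Top2a UMI, made up 588 of the 4497 CD8+ T cells. None of the 5 genes was called between cycling and non-cycling CD8+ T cells, beside 3.53% of 9983 genes tested that were called higher in cycling cells and 1.69% called lower. Gzmb was 1.23 times as abundant in cycling cells (1.18 to 1.29) and higher in 5 of 5 libraries, at 2.19, 2.50, 1.14, 1.08 and 1.48 in libraries 1, 3, 4, 5 and 6. Gzma stood at 0.949 (0.920 to 0.980), Gzmk at 1.01 (0.912 to 1.11), Prf1 at 0.997 (0.756 to 1.31) and Nkg7 at 0.906 (0.874 to 0.940), each higher in some libraries and lower in others. In libraries 1 and 3 the ratio was 2.48 and 2.16 for Gzma, 1.29 and 2.80 for Gzmk, 1.82 and 1.85 for Prf1, from 4 UMIs each, and 1.49 and 1.53 for Nkg7. In libraries 4, 5 and 6 it was 0.971, 1.02 and 0.809 for Gzma, 1.02, 0.860 and 0.976 for Gzmk, 0.957, 1.14 and 0.774 for Prf1 and 0.861, 0.870 and 0.860 for Nkg7. Gzmc, a granzyme of the Gzmb cluster that is named after its value was seen, was at 3.67 (2.998 to 4.5) from 279 UMIs, higher in 3 libraries and lower in 2, and was not called. The median depth was 3655 UMIs in cycling and 1573 in non-cycling CD8+ T cells, and when cells were also matched by depth quartile the log2 ratio of Gzma turned from -0.08 to 0.05. Without library 6 it was 0.01. The share of cells with a Gzma UMI was 16.7%, 22.9%, 79.3%, 73.7% and 74.9% in cycling CD8+ T cells of libraries 1, 3, 4, 5 and 6 and 5.07%, 5.45%, 68.3%, 67.2% and 55.2% in non-cycling ones, and the part of depth in these gaps was not tested.

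In CD4+ Tconv cells 157 of 1205 were cycling, and 3 libraries had enough of them for a direction. The ratios also include the few cycling cells of the other libraries. None of the 5 genes was called, beside 4.57% of 7721 genes called higher in cycling cells and 4.31% called lower. Gzmb was at 0.811 of the number expected (0.673 to 0.975) and lower in 3 of 3 libraries, at 0.994, 0.720 and 0.931 in libraries 4, 5 and 6. Gzma was at 1.554 (1.28 to 1.88), higher in libraries 4 and 5 and lower in library 6, and without the single cell with the most Gzma UMIs its log2 ratio went from 0.63 to 0.23. Gzmc was called, at 3.02 times the number expected (1.78 to 5.21) from 36 UMIs. Prf1, with 3 UMIs in cycling cells, was not tested.

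Foxp3+ cells came from libraries 1 (49 cells), 2 (30 cells), 3 (17 cells) and 6 (1 cell). Directions were counted in the first 3, while the ratios to CD4+ Tconv cells also include the 1 cell of library 6. Gzmb was the single member called higher, at 3.08 times the level of CD4+ Tconv cells (2.16 to 4.39) and higher in 3 of 3 libraries, beside 3.08% of 5196 genes tested called higher and 4.91% called lower. In library 1 the level was 6.26 UMIs per 10,000 (4.85 to 7.95), with a UMI in 34.7% of the 49 cells (21.7 to 49.6), and in libraries 2 and 3 the 4 and 5 UMIs each came from 1 cell. The 77 Gzmb UMIs lay in 20 of the 97 cells, with up to 17 in a cell. Gzma had 1 UMI against 9.12 expected, Gzmk 1 against 13.0 and Prf1 2 against 1.61. Nkg7 was at 0.671 (0.498 to 0.894), lower in libraries 1 and 3 and higher in library 2, where 24 UMIs stood against 0.894 expected. Those 24 UMIs lay in 4 of the 30 cells, and the number expected came from 3 UMIs in CD4+ Tconv cells. Without library 1 the log2 ratio of Nkg7 turned from -0.57 to 1.15 and that of Gzma from -2.68 to 0.02, and that of Gzmk went from -3.17 to -1.03.

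Of 8 genes tested for the granule matrix, processing and inhibitors, 1 was called higher and 2 lower in Foxp3+ cells. Of 5 genes of granule release 1 was called higher and 2 lower, and of 3 death ligand and cytokine genes 1 was called lower. None of 4 transcription factor genes was called. These counts stand beside 3.08% of all genes tested called higher and 4.91% called lower. Cst7 was called higher, at 2.82 times (1.12 to 7.24), as was Stx11, a syntaxin of granule release, at 2.33 times (1.19 to 4.56). Ctsw was called lower at 0.432 (0.220 to 0.782), as were Ctsc, the protease that activates granzymes (4 UMIs against 8.82 expected), Stxbp2, a partner of syntaxin 11 (3 against 7.76), Lyst, a gene of lysosome trafficking (2 against 7.99), and Fasl, the Fas ligand gene (2 against 7.38). Counts this low carry wide intervals, which include 1 for Ctsc, Stxbp2, Lyst and Fasl.

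UMIs of the members were found in the same CD8+ T cells more often than the product of their shares within library and depth quartile. Gzma and Gzmb were both found in 1363 cells against 1156 expected, a ratio of 1.18 (1.12 to 1.24), and Gzma and Gzmk in 868 against 703, a ratio of 1.23 (1.15 to 1.32). Gzmb and Gzmk were found together in 833 cells against 717, a ratio of 1.16 (1.08 to 1.24). Each of these 3 pairs was above its expected number in 6 of 6 libraries. Prf1 was found with Gzmk in 130 cells against 105 (1.24, 1.04 to 1.47), above its expected number in 4 libraries and below it in 2, and with Gzmb in 195 against 168 (1.16, 1.001 to 1.33), above it in 6 of 6, while its ratio with Gzma, 1.09 (0.935 to 1.26), had an interval that includes 1. Of the 283 CD8+ T cells with a Prf1 UMI, 62.9% had a Gzma UMI, 68.9% a Gzmb UMI and 91.2% an Nkg7 UMI. For the 4 pairs with Nkg7 the ratios lay between 1.03 and 1.05 and every interval included 1. Gzma, Gzmb and Gzmk were each found with Nkg7 above the expected number in 6 of 6 libraries, and Prf1 in 5 of 6. These ratios have a low ceiling, since 89.1% to 95.9% of CD8+ T cells in libraries 4, 5 and 6 had Nkg7. With Gzma at most 1776 cells could be counted against 1656 expected, so the intervals cannot show whether Nkg7 goes with the granzymes. Nkg7 was present in 95.9% of Gzma+, 95.6% of Gzmb+ and 94.95% of Gzmk+ CD8+ T cells.

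**Figure D4:**
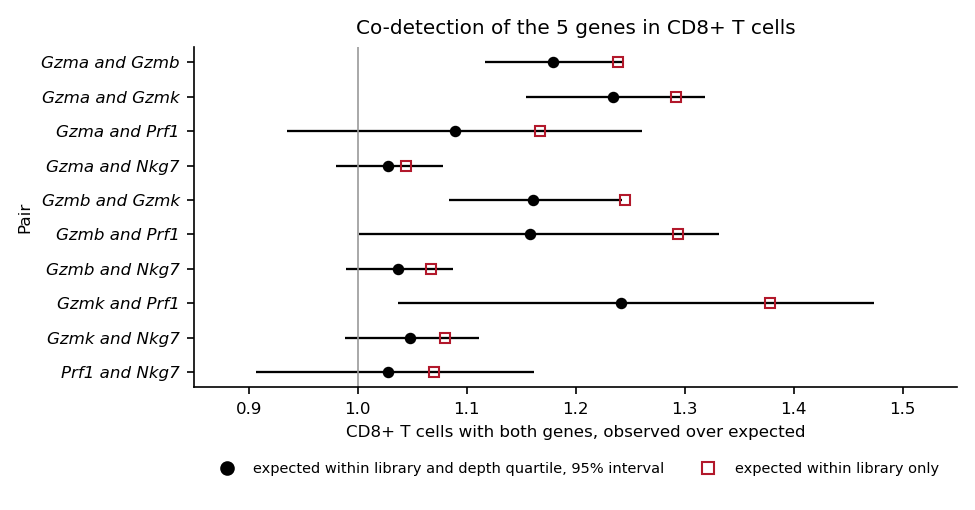
Number of CD8+ T cells with UMIs of both genes of a pair over the number expected (horizontal axis, linear), for the 10 pairs, with black circles and 95% intervals for expectation within library and depth quartile and red squares for expectation within library. Pairs of 2 granzymes lie between 1.16 and 1.23 and pairs with Nkg7 between 1.03 and 1.05, and the squares lie to the right of the circles for all 10 pairs.

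Within CD8+ T cells the members were compared between cells with and without a UMI of 6 genes of T cell state, at matched library and depth quartile. Cells with a UMI of Tcf7, a transcription factor of naive and stem-like T cells, had 0.409 of the expected Gzma (0.384 to 0.435), 0.4996 of the expected Gzmb (0.459 to 0.543) and 0.677 of the expected Gzmk (0.586 to 0.779). Gzmb was lower in 6 of 6 libraries, and Gzma and Gzmk were lower in 5 and higher in 1. Nkg7 was at 0.788 (0.751 to 0.827) in the same cells, and Prf1, with 41 UMIs, had an interval that includes 1 (0.557 to 1.14).

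Genes of activated and exhausted T cells gave ratios on both sides of 1. Cells with Havcr2, the gene of the checkpoint receptor TIM-3, had 1.42 times the expected Gzmb (1.355 to 1.495) and 1.22 times the expected Gzma (1.17 to 1.26), higher in 4 of 4 libraries for both, and Gzmk at 0.931 (0.825 to 1.05). Cells with Pdcd1, the gene of PD-1, had 1.19 times the expected Nkg7 (1.15 to 1.23), higher in 5 of 5 libraries. Gzmb was at 1.11 (1.06 to 1.16) in these cells, higher in 4 libraries and lower in 1. Gzma was at 0.937 (0.908 to 0.966), higher in 2 libraries and lower in 3. Klrd1, the gene of the NK receptor chain CD94, was found in 2205 CD8+ T cells, and these had 1.60 times the expected Gzma (1.54 to 1.66), higher in 6 of 6 libraries, with Gzmk at 0.988 (0.896 to 1.09). The 118 CD8+ T cells with Ccr8, a chemokine receptor gene, had 0.380 of the expected Gzmk (0.273 to 0.517), lower in 4 of 4 libraries. They had 0.643 of the expected Gzma (0.593 to 0.696), lower in 3 libraries and higher in 1. For Ifng the ratios of the 5 genes ran from 1.07 to 1.18.

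Among CD4+ Tconv cells, the members had ratios above 1 in those with an Ifng UMI. Gzma was at 2.42 times the expected number (1.99 to 2.96), Gzmk at 2.08 times (1.42 to 3.06), Nkg7 at 2.14 times (1.94 to 2.36) and Gzmb at 1.39 times (1.19 to 1.63). Nkg7 was higher in 5 of 5 libraries, and Gzmb and Gzmk were higher in 4 and lower in 1, whereas Gzma was higher in 2 and lower in 3. Prf1, with 6 UMIs, had an interval that includes 1 (0.710 to 15.7). Cells with Pdcd1 had 2.03 times the expected Gzmk (1.36 to 3.04) and 1.45 times the expected Nkg7 (1.30 to 1.61), each higher in 4 of 4 libraries. The 142 cells with a UMI of the type 2 cytokine genes Il4, Il5 or Il13 had 17 Gzma UMIs against 190 expected, a ratio of 0.0896 (0.0515 to 0.146), and Nkg7 at 0.477 (0.407 to 0.557), both lower in 3 of 3 libraries. Gzmb was at 1.12 (0.919 to 1.36) in these cells, from 181 UMIs, and no Prf1 UMI was found against 3.82 expected. Cells with Ccr8 had Gzma at 0.655 (0.495 to 0.855), Gzmb at 0.767 (0.607 to 0.962) and Gzmk at 0.541 (0.275 to 0.986), with Gzma and Gzmb lower in 3 libraries and higher in 1 and Gzmk lower in 2 and higher in 2.

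**Figure D5:**
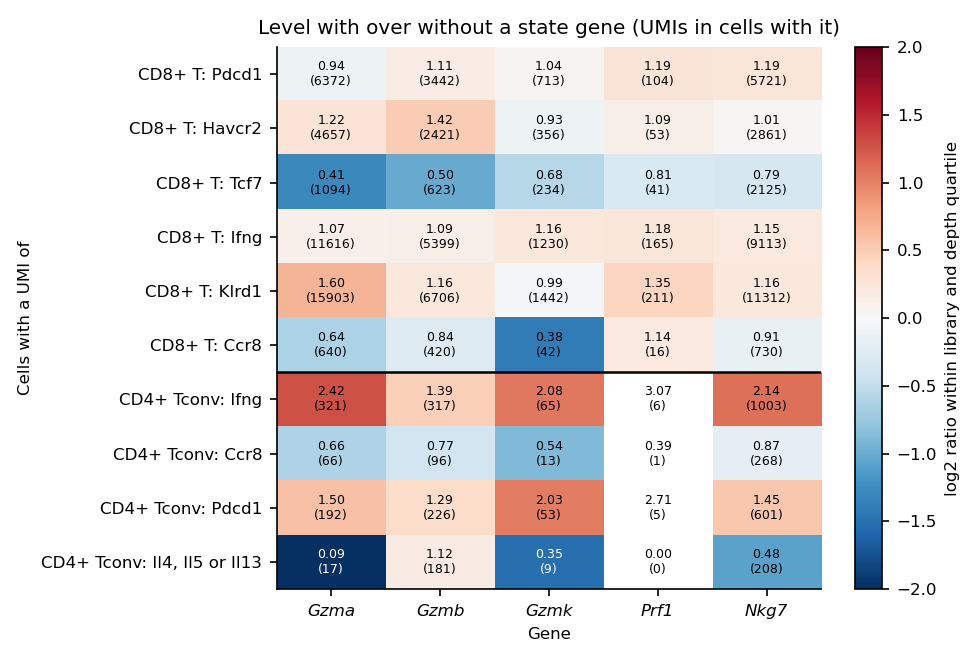
Ratio of each gene between cells with and without a UMI of a state gene, within library and depth quartile, for 6 genes in CD8+ T cells (above the line) and 4 gene sets in CD4+ Tconv cells (below it); color is the log2 ratio, each cell prints the ratio and, in brackets, the UMIs in cells with the state gene, and Prf1 in CD4+ Tconv cells is left uncolored because it rests on 13 UMIs. The lowest colored ratio is Gzma with Il4, Il5 or Il13 (0.0896) and the highest is Gzma with Ifng in CD4+ Tconv cells (2.42).

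The genes whose levels were most like those of each member were taken over 20 combinations of library, lineage (CD4+ Tconv or CD8+) and cycling state with at least 20 cells, by Pearson's r of log2 (UMIs per 10,000 + 0.1), among genes with at least 500 UMIs. These combinations share libraries and depth, so r is a description. For Gzma the 5 highest were Abracl (0.94), Klrc1 (0.92), Thy1 (0.92), Efhd2 (0.91) and Gzmb (0.90), of which Klrc1 encodes the NKG2A receptor chain. For Gzmb they were Ctsd (0.93), Lgals3 (0.93), Cyba (0.93), Anxa2 (0.92) and Pglyrp1 (0.91). For Gzmk they were Gimap7 (0.91), Plek (0.88), Ccl3 (0.88), Wdr95 (0.87) and Ccl5 (0.87), which include the chemokine genes Ccl3 and Ccl5. For Prf1 they were Cd160 (0.90), Cd8a (0.86), Cd8b1 (0.86), Xcl1 (0.82) and Ugcg (0.80), and Cd8a and Cd8b1 had set the lineages. For Nkg7 they included Cst7 (0.92), Zyx (0.91), AW112010 (0.90) and Tapbpl (0.90). Among the members themselves r was highest for Gzma with Gzmb (0.90) and lowest for Gzmb with Prf1 (0.39).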

How the data were processed

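Live TCRβ+ T cells were enriched, sorted by FACS and run on the Chromium 5′ gene expression kit. The authors mapped the reads to mm10 by the methods of the study (the labels list mm9), merged the libraries with Cell Ranger and filtered cells in Seurat on genes detected and mitochondrial transcripts. The deposited values are raw UMI counts per gene and cell, whole numbers with no normalization. They held 201 to 2494 genes per cell and 1916305 to 5127776 UMIs per library. Cells carry a library number from 1 to 6 that no label ties to a sample, so no treatment was compared and libraries were described one by one.

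The members and gene lists were chosen with earlier results of these data known. Gates and cycling state were read from the presence of UMIs, with no clustering and no doublet caller. Levels carry exact Poisson and shares exact Clopper-Pearson 95% intervals. A ratio is the UMIs counted over those expected from the other population within library, summed over every library with cells of both. It carries an exact conditional binomial interval that covers the counting error of both populations. This interval replaced a Poisson interval on one population after the data were seen, because some comparison populations held few UMIs. Ratios were computed for all genes with at least 20 UMIs over both populations, with 0.5 added on the log2 scale, and called at 2-fold in 1 direction in every library that held at least 10 cells of each population. The genes named are the 5 members, the pathway genes that were called and the 5 genes most like each member, and exceptions are marked. Results for 2 genes that these rules name are not reported here. Scripts were tested on simulated data. Python 3.11.15, numpy 2.4.6, scipy 1.17.1 and matplotlib 3.10.9 were used, with gene positions from GENCODE on GRCm38 and promoter sequences from RefSeq on GRCm38.p6.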

Additional observations from a re-analysis of the deposited data

Results flagged for a closer look

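UMIs of the members were also found in cells that entered none of the comparisons. In the 6838 cells without a Cd4, Cd8a, Cd8b1 or Foxp3 UMI, 2432 UMIs of Gzma, 1900 of Gzmb, 329 of Gzmk, 58 of Prf1 and 4802 of Nkg7 were counted, where a count of 0 would allow 3. No background was measured for these cells, which had a median of 956.5 UMIs against 1708 in CD8+ T cells. In the 168 cells with both Cd4 and Cd8a or Cd8b1 UMIs there were 1120 UMIs of Gzma, 612 of Gzmb, 128 of Gzmk, 17 of Prf1 and 940 of Nkg7, at a median depth of 4234 UMIs per cell.

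The ratio of Gzmb between cycling and non-cycling cells lay on opposite sides of 1 in the 2 lineages, and it was called in neither. Its log2 ratio of cycling to non-cycling cells was 0.30 in CD8+ T cells, higher in 5 of 5 libraries, and -0.30 in CD4+ Tconv cells, lower in 3 of 3 libraries, at ratios of 0.994, 0.720 and 0.931. The difference between the lineages was not tested.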

How the results depend on the processing

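No paired analysis was possible because the columns of the table carry a library number and no sample or replicate. Of 305 values recomputed under other settings, 35 moved by more than the counting error. A further 6 changed sign from a value whose interval excluded a ratio of 1. Changes of sign from values whose intervals included 1 are not among the 6. Examples are Nkg7 in cycling CD4+ Tconv cells and Gzmk and Prf1 in cycling CD8+ T cells. The cause was not tested. Another 39 were identical to the value they were set against, as where a left-out library held no cells of a comparison. For CD8+ against CD4+ Tconv cells all 5 genes stayed higher in every setting. Their log2 ratio was 3.42 for Gzma, 1.86 for Gzmb and 1.36 for Nkg7 with libraries pooled, 3.95 for Gzma and 1.73 for Gzmb in cells thinned to 1500 UMIs, and 3.84 for Gzma and 1.78 for Gzmb in non-cycling cells. Leaving out 1 library at a time gave 3.58 to 3.74 for Gzma, 1.70 to 2.12 for Gzmb, 2.09 to 2.71 for Gzmk, 2.10 to 3.04 for Prf1 and 1.34 to 1.54 for Nkg7.

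For cycling CD8+ T cells, matching by library and depth quartile gave 0.05 for Gzma (a change of sign), 0.18 for Gzmb, 0.27 for Gzmk and -0.027 for Nkg7. Pooling libraries gave 0.30 for Gzma and 0.075 for Nkg7 (both changes of sign), 0.73 for Gzmb and 0.28 for Gzmk, and thinning gave -0.14 for Gzma. Leaving out 1 library gave -0.145 to 0.006 for Gzma (0.006 without library 6), 0.19 to 0.46 for Gzmb, -0.06 to 0.11 for Gzmk, -0.12 to 0.15 for Prf1 and -0.18 to -0.11 for Nkg7. For cycling CD4+ Tconv cells, depth matching gave 0.94 for Gzma and 0.068 for Nkg7, which changed sign from -0.157. Leaving out the cell with the most UMIs, a setting chosen after seeing the data, gave 0.23 for Gzma and -0.66 for Gzmb. Leaving out 1 library gave 0.33 to 0.88 for Gzma, -0.49 to -0.14 for Gzmb, 0.24 to 1.04 for Gzmk, -0.47 to 0.92 for Prf1 and -0.30 to 0.11 for Nkg7.

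For Foxp3+ cells, leaving out 1 library gave -4.15 to 0.017 for Gzma, 1.45 to 1.67 for Gzmb, -4.45 to -1.03 for Gzmk, -0.14 to 0.43 for Prf1 and -1.26 to 1.15 for Nkg7, and the changes of sign for Gzma and Nkg7 came without library 1. Thinning took the log2 level of Gzmk in library 4 over library 2 to 5.51, and an expectation within library alone gave a log2 ratio of 0.32 for Gzmb and Gzmk in the same cells. Leaving out cells with NK cell markers, also chosen after seeing the data, moved no value by more than the counting error. Leaving out 1 library, also added after seeing the data, took the log2 level of the highest over the lowest library to between 4.999 and 8.35 for Gzma, 2.75 and 7.61 for Gzmb, 0.70 and 4.07 for Gzmk, 0.75 and 1.003 for Prf1 and 0.62 and 2.27 for Nkg7, lowest without library 2. Depth limits Prf1 (13 UMIs in CD4+ Tconv cells), the values of the 97 Foxp3+ cells and the granzymes of library 2 (11 to 23 UMIs).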
